A study of Rattus norvegicus with 16 samples.

Results

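The comparison described here set cultures treated with hydroxyurea for 24 h against cultures treated for 12 h, 3 samples in each group, which are 6 of the 15 samples of the study. The members were chosen by their titles alone, and the untreated group and the 2 h and 6 h groups were left out of the comparison. Primary hippocampal neurons came from embryonic day 18 Sprague-Dawley rats, and all 6 cultures received hydroxyurea at 5 µM in Neurobasal medium whose B27 supplement lacked antioxidants. The groups therefore shared the drug, its dose and the change of medium, and differed in the time of exposure, 12 h or 24 h. The labels do not say whether the medium was changed at the same time for both groups, so time in that medium and time in the drug cannot be told apart. The extraction protocol names hippocampal tissue as the source of RNA, and nothing in the labels says that replicates were separate cultures, so the p-values reflect how far these samples differed among themselves, a spread that could be technical. The question, as far as the study's title gives it, belongs to work on whether the drug protects hippocampal neurons against stress.

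Hydroxyurea blocks ribonucleotide reductase, the enzyme that converts ribonucleotides to the deoxynucleotides needed for DNA synthesis and repair, by quenching the tyrosyl radical of its small subunit. In dividing cells the block stalls replication forks and sets off a checkpoint response. Neurons no longer divide, and in them the enzyme's subunits serve DNA repair and the copying of mitochondrial DNA. The drug also releases nitric oxide and is used to raise fetal haemoglobin in sickle cell disease.

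No feature differed between 24 h and 12 h after correction for multiple tests. Of 19889 features tested (10891 named genes, each by its brightest probe, and further probes), 0 passed an adjusted p of 0.05 (limma with Benjamini-Hochberg adjustment), a share of 0%, and the smallest adjusted p was 1. At an unadjusted p under 0.05 there were 72 features higher at 24 h (0.362%) and 129 lower (0.649%). The lowest of the 3 values at 24 h lay above the highest of the 3 at 12 h for 452 features (2.27%), and the reverse held for 515 (2.59%). A single feature without overlap has p = 0.1 in a two-sided exact permutation test, the smallest that 3 against 3 samples allow. Lack of overlap in 1 gene, or in a few members of a list, is therefore weak evidence of a difference. With the numbers of 24 h replicates 1 and 3 exchanged and samples paired by number (a replicate block), 645 features had an unadjusted p under 0.05 against 201 without pairing, and again 0 passed after adjustment. The median log2 difference over all features was -0.01, and the 5th and 95th percentiles were -0.29 and 0.38. Only 60 features differed by more than 1 on the log2 scale.

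The precision limits what this comparison could show. The median standard error of a log2 difference was 0.18, and the 95% confidence interval of a typical feature reached 0.42 to either side of its estimate. That interval lay within 1 log2 unit of 0 for 18219 features, or 91.6% of those tested. For these features a change of 1 log2 unit in either direction lay outside the interval.

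Library quality differed within the 12 h group. The share of probes well above background ran from 64.7% to 69.7% over the 6 arrays, and saturated spots were not found on any of them. The median coefficient of variation over the repeated spots of 10-spot probes was 23.41% on the array of 12 h replicate 3, against 3.59% to 5.38% on the other 5. This sample held the highest or lowest value of the 6 for 57.9% of features, followed by 24 h replicate 2 with 49.7%, and the other 4 held it for 15.2% to 28.3%. On the first principal component, 53.2% of the variance, 12 h replicate 3 scored 63.04 and the other samples lay between -17.47 and -1.53. Values without it are therefore given beside the main ones. Without 12 h replicate 3, 0 features (0%) again passed the adjusted threshold in limma, 71 were higher and 164 lower at an unadjusted p under 0.05, and groups did not overlap for 1141 higher (5.74%) and 1152 lower (5.79%) features, a criterion that 3 against 2 samples meet more easily than 3 against 3. In that setting the replicate block with 24 h numbers 1 and 3 exchanged gave 65 features past the adjusted threshold, from a fit with 1 residual degree of freedom. Features differing by more than 1 on the log2 scale numbered 20 without it, and 11 of the original 60 were among them.

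**Figure D1:**
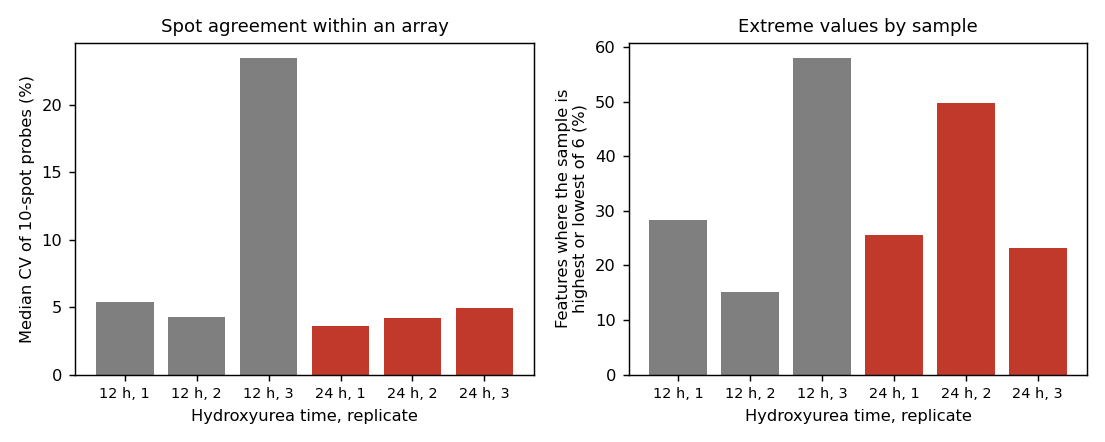
Left, the median coefficient of variation (%) over the repeated spots of 10-spot probes on each of the 6 arrays, and right, the percentage of the 19889 features for which a sample held the highest or lowest of the 6 values, with 12 h in grey and 24 h in red. The array of 12 h replicate 3 reached 23.41% against at most 5.38% elsewhere, and that sample and 24 h replicate 2 held an extreme value most often (57.9% and 49.7% of features).

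The samples also lay on 2 slides. Slide 1 held 12 h replicate 1 and 24 h replicate 3, and slide 2 held the other 4 samples. Slide and scan coincide. Within slide 2, 0 features passed the adjusted threshold and 263 had an unadjusted p under 0.05, and with slide as a block these counts were 0 and 219.

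The cultures carried defining markers of neurons, of glia and of fibroblasts in both groups. The neuronal cytoskeletal genes Map2 and Tubb3 and the GABA-synthesising enzyme Gad1 were well above background on all 6 arrays, as were the astrocyte genes Gfap and Aqp4, the myelin gene Mbp and the microglial genes Aif1 and Cx3cr1. The fibroblast collagen gene Col1a1 was also well above background on all 6. The endothelial tight-junction gene Cldn5 was well above background on 0 of 6 arrays. Of 23 neuron markers 20 were measured. Their summed intensity relative to the array's 75th percentile ranged from 271 to 322 at 12 h and from 274 to 297 at 24 h. For the 20 measured astrocyte markers of 21 it ranged from 415 to 432 at 12 h and from 378 to 451 at 24 h. The 15 oligodendrocyte-lineage markers of 18 summed to 27.7 to 37 at 12 h and 35.3 to 41.1 at 24 h. The 10 microglial markers of 18 gave 6.73 to 8.09 and 7.2 to 7.68, and the 13 radial glia and progenitor markers of 16 gave 115 to 129 and 103 to 142. For the 16 GABAergic interneuron markers of 18 the sums were 48.6 to 65.2 and 51.3 to 61.4, for the 4 endothelial markers of 14 they were 0.418 to 0.492 and 0.416 to 0.513, and for the 14 fibroblast and pericyte markers of 19 they were 4.36 to 5.25 and 4.22 to 5.94. All 8 pairs of ranges overlapped. In bulk RNA a change in cell number and a change in RNA per cell cannot be told apart. Among single markers, Dcx, a microtubule protein of young neurons, had levels of 1.12, 0.97 and 1.1 at 12 h and 0.59, 0.9 and 0.93 at 24 h, where a level is the log2 intensity minus the array's 75th percentile. All 3 values at 24 h were below those at 12 h (difference -0.25 ± 0.15, SE, adjusted p = 1 in limma).

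The target of the drug comes first among the genes. Rrm1 encodes the large, regulatory and catalytic subunit of ribonucleotide reductase. Its levels were -3.98, -4.16 and -3.88 at 12 h and -4.55, -4.01 and -4.2 at 24 h, means of -4.01 ± 0.14 and -4.25 ± 0.28 (SD, n = 3 each), and the groups overlapped. The difference of -0.24 gave p = 0.2 in a two-sided exact permutation test, where 3 against 3 samples cannot go below 0.1. Rrm2, the small subunit that holds the radical hydroxyurea quenches, had levels of 3.07, 3.08 and 3.38 at 12 h and 3.22, 2.58 and 3.18 at 24 h. Its groups overlapped as well, with 24 h replicate 2 lowest (difference -0.18, exact permutation p = 0.6), and a further probe of the gene gave -0.39. Rrm2b, the p53-inducible small subunit, was not among the features tested. Of the 13 measured genes of ribonucleotide reductase and deoxynucleotide supply, 0 passed the adjusted threshold, 5 had higher and 8 lower means at 24 h, and the median log2 difference was -0.09, or -0.02 without 12 h replicate 3, against -0.01 and 0 over all features. Groups did not overlap for 2 of the 13, both lower (15.4%, against 2.59% of all features). Among them Dut, which removes dUTP, was lower at 24 h in all samples, by a mean of -0.2 or, without 12 h replicate 3, of -0.1. Dck, a kinase of the salvage pathway, differed by -0.31 ± 0.22 with overlapping groups.

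The checkpoint and survival genes that a replication or DNA damage signal would reach showed no common direction. Among 19 measured p53 targets and checkpoint genes, 11 means were higher and 8 lower at 24 h, with a median of 0.01. Phlda3, a p53 target that restrains AKT signalling, had levels of -3.01, -3.17 and -3.54 at 12 h and -2.57, -2.86 and -2.79 at 24 h. The 3 values at 24 h were all higher (difference 0.5 ± 0.18, SE, adjusted p = 1), the difference was 0.35 without 12 h replicate 3, and the untreated samples lay between -3.96 and -2.54. Cdkn1a, which encodes the cyclin-dependent kinase inhibitor p21 and was chosen after its values were seen, had levels of 3.28, 2.95 and 3.2 at 12 h and 2.83, 3.46 and 3.18 at 24 h, which overlapped (difference 0.01, exact permutation p = 1). Tp53inp1, a p53-induced stress protein, had a difference of -0.28 ± 0.17 (SE), and Bbc3, the pro-apoptotic protein PUMA, one of 0.25 ± 0.18. In the BCL2 family 10 of 15 measured members had higher means and 5 lower. Its member with the smallest p was Bcl2l15, a dim probe, with levels of -5.72, -5.84 and -5.65 at 12 h and -6.05, -6.34 and -6.62 at 24 h. Bcl2l12, another member, differed by 0.18 ± 0.18. Of 35 cell-cycle genes 14 had higher and 21 lower means, with a median of -0.04, and groups did not overlap for 0 of them. Ccnb1, the mitotic cyclin B1, differed by 0.29 ± 0.22 (SE), and by 0.04 without 12 h replicate 3. Kif11, a spindle motor, and Racgap1, a cytokinesis regulator, differed by -0.29 ± 0.26 and -0.16 ± 0.15.

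The genes with the smallest unadjusted p among those whose groups did not overlap were for the most part dim. The 10 higher and 10 lower genes had mean levels between -6.75 and -2.99, while the median over all features was -1.6, and 10 of the 20 were below the background criterion on at least 1 array. The 10 genes below the criterion on some array were kept only because all 3 arrays of the group where they were brighter passed it. The filter thus let them in through that group. Their differences lay between 0.44 and 0.91 in size and their unadjusted p between 0.00429 and 0.0249 (limma), and each had an adjusted p of 1. Without 12 h replicate 3, the difference was smaller for 14 of the 20. With normexp background correction, which adds an offset of 50 to every intensity and so compresses differences between dim values, it was smaller by over 1.5 times for 19 of the 20, and its size ran from 0.03 to 0.42. Henmt1, at 0.9 in the main setting, was at 0.1 and Ctxn3, at -0.79, was at -0.25. Because the rule picked these genes by this contrast, their values are a description.

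On the higher side, Stat5b, a transcription factor of cytokine and growth hormone signalling, had levels of -6, -6.21 and -6.1 at 12 h and -5.76, -5.05 and -5.64 at 24 h (difference 0.62 ± 0.21, SE). Pvalb, the calcium buffer of fast-spiking interneurons, had levels of -5.4, -5.37 and -6.12 at 12 h and -5.25, -4.65 and -4.7 at 24 h, and the difference of 0.76 was 0.52 without 12 h replicate 3. Gad2, the other GABA-synthesising enzyme, differed in the opposite direction by -0.28 ± 0.21. Hcst, an adaptor of natural killer and microglial receptors, differed by 0.89 ± 0.28, with 24 h replicate 2 at -4.68 and the other 24 h samples at -5.72 and -5.76. Henmt1, which methylates small RNAs, differed by 0.9 ± 0.27 and Slc66a1, a lysosomal amino acid transporter, by 0.91 ± 0.33, or by 0.52 without 12 h replicate 3. Calr3, a calreticulin, differed by 0.69 ± 0.24, Cdh15, a cadherin, by 0.55 ± 0.2, and Syde2, a GTPase-activating protein, by 0.65 ± 0.23. The olfactory receptor Or4k48 was not well above background on any 12 h array and was on 3 of 3 at 24 h. Its measured means were -6.47 at 12 h and -6.03 at 24 h. The 24 h mean was thus 1.35-fold higher, which is an estimate and not a lower limit. Its difference of 0.44 ± 0.13 (SE) was -0.03 with normexp background correction.

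On the lower side, Shisa6, an auxiliary protein of AMPA-type glutamate receptors, had levels of -5.74, -5.88 and -5.61 at 12 h and -6.25, -6.22 and -6.38 at 24 h. The 2 groups did not overlap (difference -0.54 ± 0.14, SE), and the difference was -0.47 without 12 h replicate 3 and -0.25 with normexp. The untreated samples ran from -7.45 to -5.41, a range that holds all 6 of these values. Pi4k2b, a phosphatidylinositol 4-kinase, had levels of -5.16, -4.53 and -4.94 at 12 h and -5.55, -5.66 and -5.4 at 24 h, and the mean of the untreated samples was -5.63. Pkd2, the calcium channel polycystin-2 of primary cilia, had levels of -4.02, -4.05 and -3.62 at 12 h and -4.37, -4.34 and -4.36 at 24 h. Dync2h1, the heavy chain of the motor that carries cargo back along cilia, differed by -0.73 ± 0.26 by its brighter probe and by -0.20 by another. Hmmr, a hyaluronan receptor that acts at the mitotic spindle, differed by -0.68 ± 0.23, but by -0.11 within slide 1 and -0.96 within slide 2. Klhl11, a substrate adaptor of a ubiquitin ligase, likewise differed by -0.67 ± 0.21, with -0.03 within slide 1 and -0.99 within slide 2. Vsig8, an immunoglobulin-domain protein, differed by -0.59 ± 0.19 and 4933416E14Rikl by -0.5 ± 0.17. Ctxn3, a small membrane protein, was not well above background on any 24 h array, with measured means of -6.36 at 12 h and -7.15 at 24 h, so that it was at least 1.32-fold lower at 24 h.

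**Figure D2:**
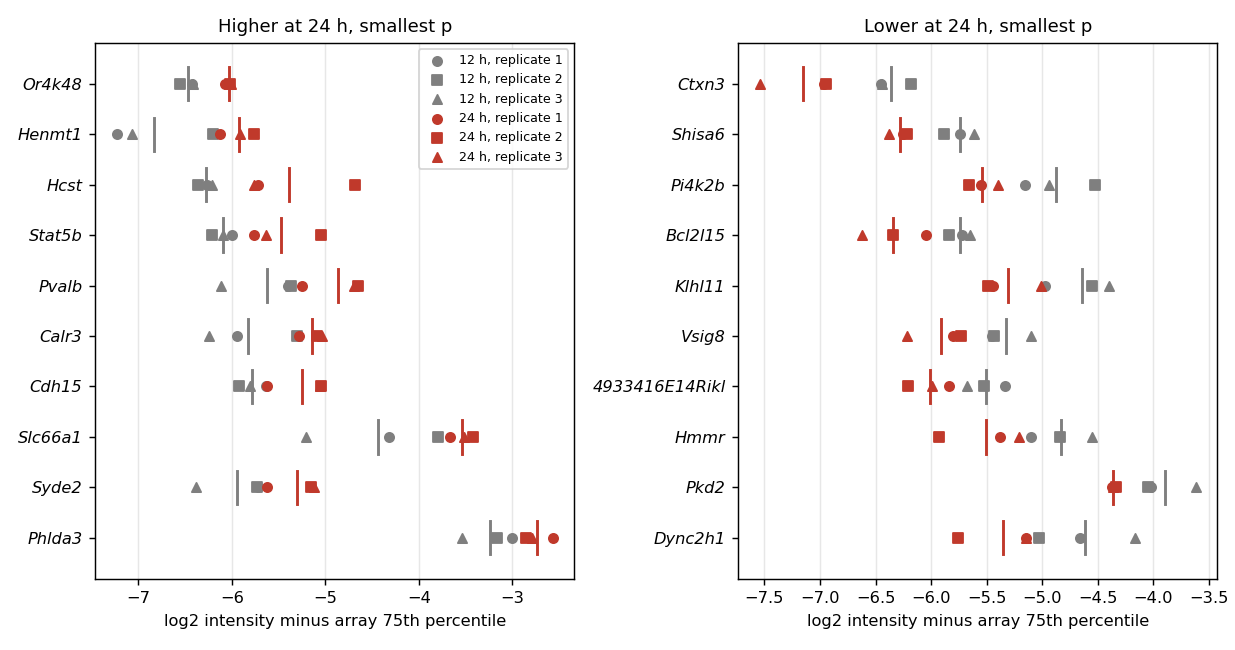
Levels (log2 intensity minus the 75th percentile of the array) of the 10 higher and the 10 lower genes with the smallest unadjusted p among genes whose groups did not overlap, in every sample of 12 h (grey) and 24 h (red), with vertical bars at the group means and symbols for the replicates. Most of these genes lie near the bottom of the range of the arrays, and 12 h replicate 3 (grey triangle) is often the farthest point of its group, as for Slc66a1 at -5.21.

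Without 12 h replicate 3 the same rule, with 5 genes a side, named Or4k48, Ctxn3, Shisa6 and 4933416E14Rikl again and brought in 6 others. Mcmdc2, a meiotic member of the MCM helicase family, had levels of -5.38 and -5.31 in the first 2 replicates at 12 h, -7.28 in the third, and -6.06, -5.83 and -5.97 at 24 h. Its difference was 0.04 with all samples and -0.6 without that replicate. Upk1b, a uroplakin, had a difference of -0.3 with all samples and -0.7 without it. On the higher side, Fbln5, an elastic-fibre protein, went from 0.41 to 0.79, Mixl1, a homeobox factor of early development, from 0.23 to 0.59, C17h6orf52 from 0.44 to 0.6 and Prss30, a serine protease, from 0.45 to 0.58. None passed the adjusted threshold in either fit.

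Among receptor genes, 5 of 43 measured glutamate receptor and postsynaptic density genes were lower at 24 h in every sample (11.6%, against 2.59% of all features) and 1 was higher (2.33%, against 2.27%). Glutamate is the main excitatory transmitter of hippocampal neurons, and AMPA, NMDA and kainate receptors are its ion channels. Gria2, the AMPA receptor subunit that limits calcium entry, had levels of 0.16, 0.21 and 0.25 at 12 h and -0.13, -0.22 and -0.05 at 24 h, means of 0.2 ± 0.04 and -0.14 ± 0.08 (SD, n = 3 each). All 24 h values were below all 12 h values, and the difference was -0.34 ± 0.13 (SE, adjusted p = 1), -0.32 without 12 h replicate 3, and -0.26 by a further probe. The untreated mean, 0.06, lay between the 2 groups. The 4 other lower genes, named after their values were seen, were Grin2a, Gria1, Grik2 and Dlg1, with differences of -0.22, -0.17, -0.16 and -0.17, none with an unadjusted p under 0.05. Shank2, a postsynaptic scaffold protein at the dim end, was the higher gene, with levels of -6.04, -6.55 and -6.03 at 12 h and -5.98, -5.54 and -5.97 at 24 h. Lrrtm2, a synaptic adhesion protein, differed by -0.33 ± 0.19, and its other probe by -0.03. Over the 43 genes 19 means were higher and 24 lower, and the median was -0.05.

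**Figure D3:**
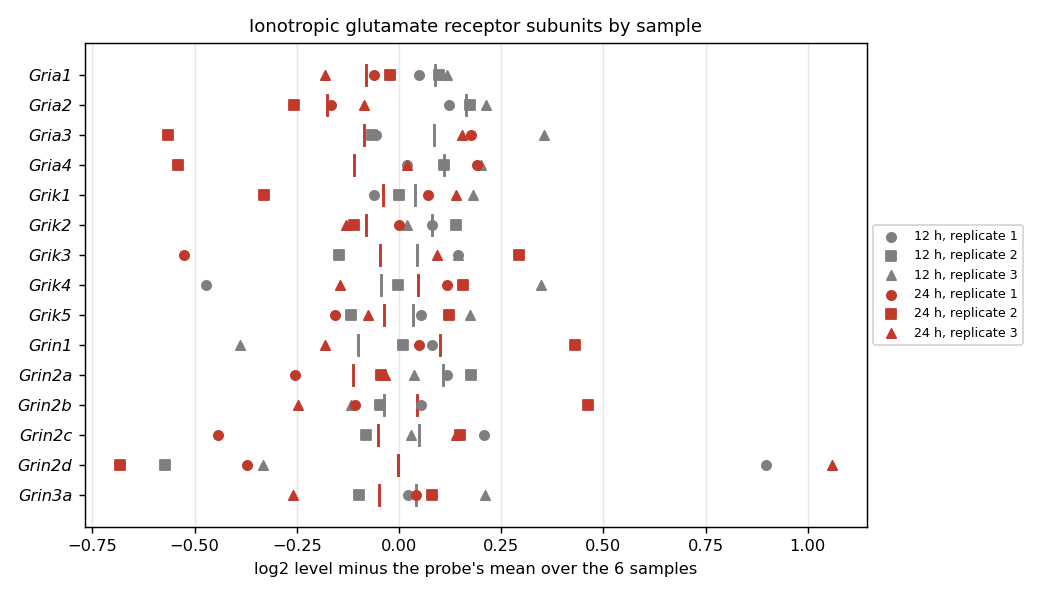
Levels of the 15 measured ionotropic glutamate receptor subunits in every sample, each as the log2 level minus the probe's own mean over the 6 samples, with 12 h in grey, 24 h in red, bars at the group means and symbols for the replicates. Groups did not overlap for 4 of the 15 (Gria1, Gria2, Grik2 and Grin2a), each lower at 24 h where 2.59% of all features were, 1 of the 15 had an unadjusted p under 0.05, and the family was drawn after its values were seen.

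The inhibitory receptor and ion channel genes leaned lower. Of 47 measured GABA receptor, calcium and potassium channel genes 34 had lower and 13 higher means at 24 h (72.3% lower, against 52.6% of all features), with a median of -0.08, and the same counts, 34 and 13, with a median of -0.09 without 12 h replicate 3. The list's median deviations by sample overlapped, at 0.07, -0.04 and 0.13 at 12 h and -0.01, -0.07 and -0.01 at 24 h. In them 12 h replicate 2 lay below 24 h replicates 1 and 3. Of these 47, 0 passed the adjusted threshold and 0 had an unadjusted p under 0.05, and groups did not overlap for 3, all lower (6.38%, against 2.59% of all features). Cacna1h, a low-threshold calcium channel, had levels of 0.8, 0.56 and 1.68 at 12 h and 0.51, 0.39 and 0.48 at 24 h, and its difference of -0.56 became -0.22 without 12 h replicate 3. Gabra4 and Gabra3, subunits of the GABA-A receptor, differed by -0.25 ± 0.16 and -0.44 ± 0.28 (SE). In the presynaptic release list 15 of 37 means were higher and 22 lower, with a median of -0.07 that was 0.03 without 12 h replicate 3. Rab3a, a vesicle GTPase, had levels of 0.44, 0.73 and -0.34 at 12 h and 0.77, 1.14 and 0.67 at 24 h, and Unc13a, a vesicle priming factor, -2.24, -2.6 and -1.7 at 12 h and -2.62, -2.75 and -2.45 at 24 h. In both, 12 h replicate 3 was the farthest value of its group. Nsf, which takes apart used fusion complexes, differed by 0.33 ± 0.17.

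Activity-regulated genes and neurotrophins overlapped throughout. Of 33 immediate early and activity-regulated genes 11 means were higher and 22 lower, groups overlapped for all 33, and the median of -0.03 was 0.01 without 12 h replicate 3. Ier2, an early response gene, spread widely, with levels of 0.87, 0.7 and 1.45 at 12 h and 0.43, 0.99 and -0.25 at 24 h. Nr4a2 and Egr4, early response transcription factors, differed by -0.36 ± 0.26 and -0.28 ± 0.23. Of 18 neurotrophin and receptor genes 8 means were higher and 10 lower. Ntf3, a neurotrophin, differed by 0.48 ± 0.3, or 0.19 without 12 h replicate 3, and Ngfr, the shared neurotrophin receptor, by 0.21 ± 0.17.

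In the stress and metabolic lists 0 members passed the adjusted threshold, and the counts of higher and lower means of several lists turned when 12 h replicate 3 was left out. The integrated stress response slows general translation through eIF2α while ATF4 raises amino acid transport and synthesis. Of its 23 measured genes 10 means were higher and 13 lower with a median of -0.04, but 18 were higher and 5 lower with a median of 0.12 without 12 h replicate 3. Shmt2, the mitochondrial serine hydroxymethyltransferase, had levels of 0.91, 0.73 and 0.74 at 12 h and 1.22, 1.19 and 0.97 at 24 h. Its groups did not overlap (difference 0.33 ± 0.14, SE, and 0.3 without that replicate), with 0.06 within slide 1 and 0.47 within slide 2. Slc7a5, a transporter of large neutral amino acids, had levels of -0.29, -0.21 and -0.48 at 12 h and -0.07, 0.08 and -0.12 at 24 h, also without overlap. These were the 2 members of the list without overlap, both higher (8.7%, against 2.27% of all features). Trib3, an inhibitor of AKT and ATF4 target, differed by 0.25 ± 0.16. Among 25 endoplasmic reticulum chaperones and heat shock proteins 15 means were higher, and Creld2, a secreted chaperone-like protein, had non-overlapping levels of -1.24, -1.37 and -1.73 at 12 h and -1.12, -1.07 and -1.03 at 24 h. It was the only member without overlap (4% of the list, against 2.27% of all features). The difference of 0.43 for Hsp90b1, the chaperone GRP94, became 0.07 without 12 h replicate 3, whose level was 0.28 where the other 5 samples lay between 1.27 and 1.49. Sdf2l1, a partner of the chaperone BiP, differed by 0.23 ± 0.15.

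Of 39 HIF targets and glycolytic genes 25 means were higher and 14 lower at 24 h, with a median of 0.06 in both settings. Groups did not overlap for 1 higher gene and 1 lower gene (2.56% each, against 2.27% and 2.59% of all features). The lower was Pfkfb3, whose product sets the level of an allosteric activator of glycolysis, with levels of -4.51, -4.09 and -4.54 at 12 h and -5.43, -4.65 and -4.56 at 24 h (difference -0.5 ± 0.26, SE), and -0.79 by its other probe. Kdm3a, an oxygen-sensitive histone demethylase, differed by 0.42 ± 0.26, or 0.12 without 12 h replicate 3, and Pfkl, liver phosphofructokinase, by 0.27 ± 0.18. The nuclear-encoded respiratory chain list had 30 higher and 29 lower means of 59, and 47 higher and 12 lower without 12 h replicate 3, with medians of 0 and 0.06. Its members with the smallest p all belong to complex III, Uqcrq at -0.33 ± 0.19, Uqcrc1 at 0.3 ± 0.21 and Uqcrc2 at -0.22 ± 0.16, and they do not share a direction. Among 28 NRF2, glutathione and antioxidant genes 16 means were higher and 12 lower, with a median of 0.03, and groups overlapped for all 28. Gstp1, Gsta4 and Srxn1, which conjugate glutathione or repair oxidised peroxiredoxin, differed by 0.41 ± 0.3, 0.25 ± 0.23 and 0.3 ± 0.28.

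For cholesterol and fatty acid synthesis, 11 of 32 means were higher with all samples and 25 of 32 without 12 h replicate 3, with medians of -0.05 and 0.07. Lpin1, a phosphatidate phosphatase, had levels of -5.47, -4.7 and -4.9 at 12 h and -5.85, -5.36 and -5.9 at 24 h, a difference of -0.68 ± 0.24 with overlapping groups, and its untreated mean was -5.75. Nsdhl and Pmvk, enzymes of the sterol pathway, differed by 0.36 ± 0.17 and 0.26 ± 0.16. For cytosolic ribosomal proteins, 58 of 74 means were lower with all samples and 35 of 74 without 12 h replicate 3, with medians of -0.06 and 0, and the median was 0.12 within slide 1 and -0.17 within slide 2. Rps24, Rps20 and Rps15a, of the small subunit, differed by -0.24 ± 0.15, -0.21 ± 0.16 and -0.26 ± 0.19. In Rps15a, 12 h replicate 3 stood at 7 and the other 5 samples between 6.32 and 6.43.

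Lysosomal and autophagy genes had 4 of 36 members higher at 24 h in every sample (11.1%, against 2.27% of all features) and 0 lower. Npc2, which carries cholesterol out of lysosomes, had levels of 0.91, 0.89 and 0.67 at 12 h and 1.03, 1.09 and 1.04 at 24 h, and Neu1, a lysosomal sialidase, -1.91, -1.8 and -2.06 against -1.8, -1.59 and -1.68. Both differed by 0.23 ± 0.14 (SE), and by 0.15 and 0.17 without 12 h replicate 3. Atg5 and Map1lc3b, autophagosome genes named after their values were seen, differed by 0.18 each. Tfeb, the transcription factor of lysosome genes, differed by 0.55 ± 0.32 with overlapping groups, and 24 h replicate 3 was highest at -3.76. The list's median was 0.01, and 20 means were higher and 16 lower. Of 14 interferon and inflammatory genes 10 means were higher, 1 of them with an unadjusted p under 0.05. This was Bst2, the virus-tethering protein tetherin, with levels of -6.22, -6.17 and -6.3 at 12 h and -5.79, -5.91 and -5.94 at 24 h. Icam1, an adhesion receptor, differed by 0.4 ± 0.32 and Ifi44 by -0.19 ± 0.15. Iron and heme genes split 10 higher and 12 lower of 22 (Ireb2 0.34 ± 0.22, Slc40a1 0.22 ± 0.24, Uros -0.15 ± 0.18), and the glucocorticoid and thyroid hormone list 9 and 8 of 17 (Fkbp5 0.32 ± 0.21, Dio3 0.3 ± 0.23, Nr3c1 -0.19 ± 0.18).

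Over all 29 lists the medians ran from -0.09 to 0.11, and from -0.14 to 0.12 without 12 h replicate 3, and 9 of the 29 medians changed sign between these settings. The 739 distinct members had non-overlapping groups in 16 higher (2.17%) and 19 lower (2.57%) cases, shares close to the 2.27% and 2.59% of all features. Of the 739, 0 passed the adjusted threshold, and 3 higher and 3 lower had an unadjusted p under 0.05. In 14 of the 29 lists 12 h replicate 3 had the highest median deviation of the 6 samples, and in 11 it was 24 h replicate 2.

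Most marker lists held members on both sides of 0, and the radial glia and progenitor list leaned lower. The neuron list had 10 higher and 10 lower means of 20 with a median of -0.01, and the astrocyte list 9 and 11 of 20 with a median of 0. The radial glia and progenitor list had 3 higher and 10 lower of 13 (76.9% lower, against 52.6% of all features), and 1 higher and 12 lower without 12 h replicate 3, with medians of -0.08 and -0.14. Its median deviations by sample were 0.12, 0.07 and -0.15 at 12 h and -0.22, 0.12 and 0.08 at 24 h. Apart from 12 h replicate 3, only 24 h replicate 1 lay below 0, and the other 24 h samples lay level with the first 2 replicates at 12 h. These deviations are from the mean of all 6 samples, and no fit left out both 12 h replicate 3 and 24 h replicate 1. Map2 differed by -0.36 ± 0.19, or -0.21 without that replicate, Slc4a4, an astrocyte bicarbonate transporter, by -0.34 ± 0.2, Cnp, a myelin enzyme, by 0.39 ± 0.26, and C1qb, a microglial complement gene, by 0.2 ± 0.16. The interneuron list had 10 higher and 6 lower means of 16 (median 0.05), the oligodendrocyte lineage 9 and 6 of 15 (0.09), microglia 6 and 4 of 10 (0.06), endothelium 3 and 1 of 4 (0.11), and fibroblasts and pericytes 7 and 7 of 14 (0). Without 12 h replicate 3 the microglial median was -0.08. Groups did not overlap for 1 microglial marker on the higher side (10% of its list, against 2.27% of all features), Tyrobp, a signalling adaptor named after its values were seen, which differed by 0.14 ± 0.14. They did not overlap either for 1 oligodendrocyte marker on the lower side (6.67%, against 2.59%), Ugt8, which makes myelin galactolipids, with levels of -5.96, -6.05 and -5.18 at 12 h and -6.05, -6.5 and -6.11 at 24 h, where the nearest values of the 2 groups round to the same number. The groups of the other leading markers overlapped. These were Calb1 (0.36 ± 0.25), Nefl (-0.3 ± 0.26), Glul (0.23 ± 0.21), Aqp4 (-0.17 ± 0.16), Mag (0.23 ± 0.16), Trem2 (-0.39 ± 0.31), Cd68 (-0.15 ± 0.14) and the progenitor genes Notch1 (-0.17 ± 0.15), Hes5 (-0.2 ± 0.2) and Ptprz1 (-0.09 ± 0.15), each with its log2 difference and SE. Among vascular and mesenchymal markers the differences were 0.48 ± 0.26 for Pecam1, 0.14 ± 0.22 for Kdr, -0.16 ± 0.27 for Cdh5, -0.27 ± 0.17 for Cald1, -0.35 ± 0.29 for Vtn and -0.18 ± 0.18 for Igfbp7.

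**Figure D4:**
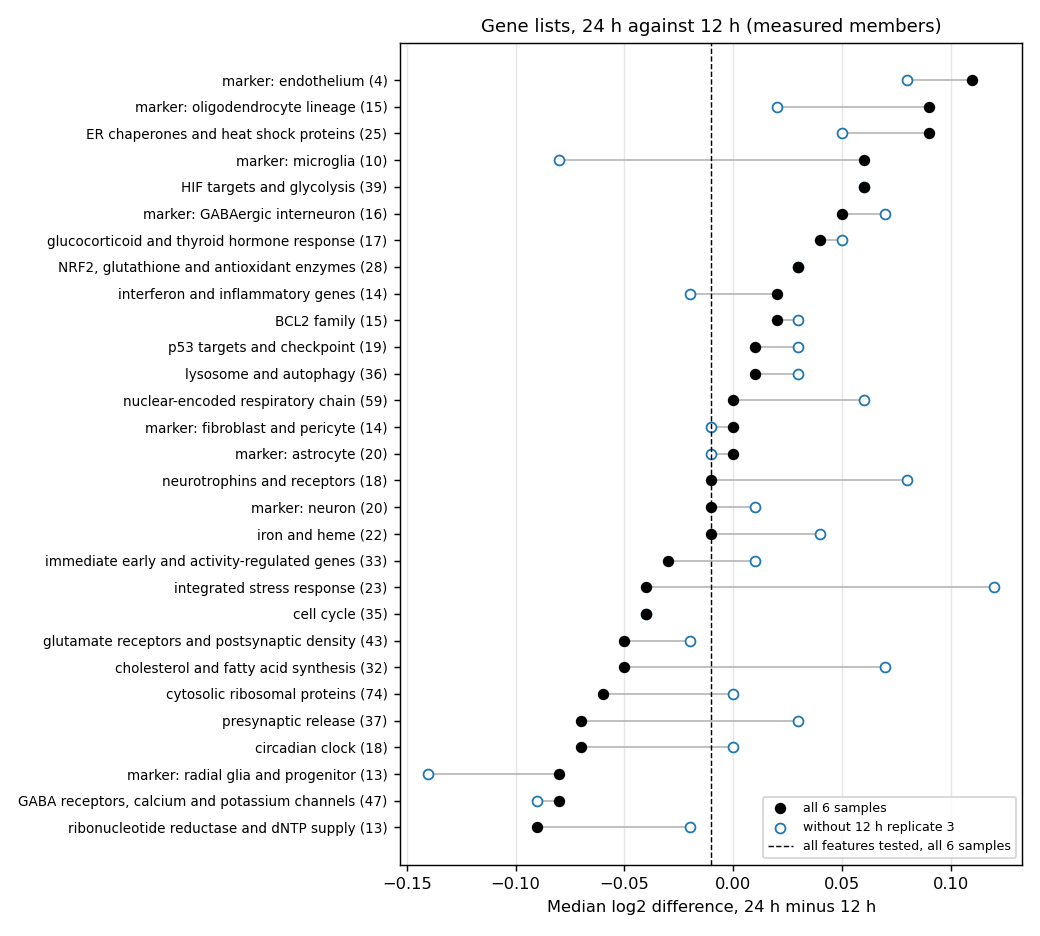
Median log2 difference (24 h minus 12 h) of the measured members of each of the 29 gene lists, with their number in parentheses, for all 6 samples (black points) and without 12 h replicate 3 (open blue points), and the median of all 19889 features as a dashed line. The black points lie between -0.09 and 0.11, and leaving out that sample moved the integrated stress response from -0.04 to 0.12 and cholesterol synthesis from -0.05 to 0.07.

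The 2 groups differed by 12 h in exposure, a span over which circadian transcripts can pass from peak to trough. The sample labels give the time of exposure and not the hour of harvest, so whether the groups differed in circadian phase is not known. In the clock, CLOCK and BMAL1 bind the E-box (CACGTG) in the promoters of period, cryptochrome and output genes, whose products then feed back on the pair. Promoters of 15 of the 18 measured clock genes were found in RefSeq (GRCr8, 250 bases before to 50 bases after the start). For each gene the first listed promoter was searched, and any other start of the gene was left out. CACGTG, which reads the same on both strands, was found in 3 of the 15, against 6.42% of all 33469 listed promoters of this length (2148). The 3 are shown because they hold the motif of the clock's own activators, written 5′ to 3′ on the gene's strand with each CACGTG in capitals. A match is a description of these letters and not evidence of binding.
Ciart (chr2:186112197-186112496, minus strand): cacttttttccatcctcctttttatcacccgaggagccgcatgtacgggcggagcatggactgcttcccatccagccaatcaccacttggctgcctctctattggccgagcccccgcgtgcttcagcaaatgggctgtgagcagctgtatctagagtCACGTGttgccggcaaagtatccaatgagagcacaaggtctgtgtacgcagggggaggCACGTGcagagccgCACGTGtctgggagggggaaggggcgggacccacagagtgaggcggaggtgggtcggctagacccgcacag
Tef (chr7:115206577-115206876, plus strand): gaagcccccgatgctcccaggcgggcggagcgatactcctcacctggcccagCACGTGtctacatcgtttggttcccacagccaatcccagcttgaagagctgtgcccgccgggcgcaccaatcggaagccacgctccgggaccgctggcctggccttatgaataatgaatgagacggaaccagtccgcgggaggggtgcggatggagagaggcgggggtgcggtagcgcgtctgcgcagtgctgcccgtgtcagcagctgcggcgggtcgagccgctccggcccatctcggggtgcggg
Bhlhe40 (chr4:143174200-143174499, plus strand): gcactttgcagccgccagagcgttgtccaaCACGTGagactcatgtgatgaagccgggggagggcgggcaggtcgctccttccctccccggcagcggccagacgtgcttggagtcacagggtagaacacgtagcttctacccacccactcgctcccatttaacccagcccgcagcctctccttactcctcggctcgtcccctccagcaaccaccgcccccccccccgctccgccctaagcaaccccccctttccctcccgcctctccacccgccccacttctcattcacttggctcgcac

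The 3 genes with the motif did not move together. Ciart, a repressor of CLOCK and BMAL1 with 3 copies in its promoter, had levels of -3.99, -3.81 and -3.5 at 12 h and -3.33, -4.14 and -2.67 at 24 h. Its 24 h samples held both the highest and the lowest of the 6 values (difference 0.39 ± 0.34, SE), with 1.32 within slide 1 and -0.08 within slide 2. Tef, an output transcription factor with 1 copy, had levels of 0.17, 0.42 and 1.74 at 12 h and 0.1, 0.53 and -0.51 at 24 h. Its difference was -0.73 ± 0.43, and -0.25 without 12 h replicate 3, which stood highest. Bhlhe40, a repressor with 1 copy, had levels of -3.6, -3.87 and -3.77 at 12 h and -3.86, -3.8 and -3.78 at 24 h (difference -0.07 ± 0.14).

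The clock list as a whole, with those 3 genes and with members whose promoter was not searched, spread around 0 as well. Of the 18 measured genes 5 had higher and 13 lower means at 24 h, with a median of -0.07, and 9 and 9 with a median of 0 without 12 h replicate 3. Of the 18, 0 passed the adjusted threshold and 0 had an unadjusted p under 0.05. Rorb, a nuclear receptor, was the 1 member whose groups did not overlap (5.56% of the list on the lower side, against 2.59% of all features), with levels of -3.95, -3.72 and -3.87 at 12 h and -4.23, -4.15 and -4.08 at 24 h (difference -0.31 ± 0.14, SE). Among the activators, Clock differed by -0.44 ± 0.24 by its brighter probe and by 0.64 by the other, Bmal1 by 0.27 ± 0.22, or 0.03 without 12 h replicate 3, and Npas2 by 0 ± 0.14. Among the repressors, Per1 differed by -0.07 ± 0.18, Per2 by -0.1 ± 0.16, Per3 by 0.31 ± 0.29, Cry1 by -0.03 ± 0.16, Cry2 by -0.1 ± 0.17 and Nr1d1 by -0.06 ± 0.23. Dbp, an output gene of large daily amplitude in many tissues, had levels of 1.58, 1.57 and 1.58 at 12 h and 1.37, 1.6 and 1.42 at 24 h. Nfil3, which opposes it, differed by 0.28 ± 0.18. The kinases Csnk1e and Csnk1d differed by -0.23 ± 0.19 and -0.07 ± 0.16.

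**Figure D5:**
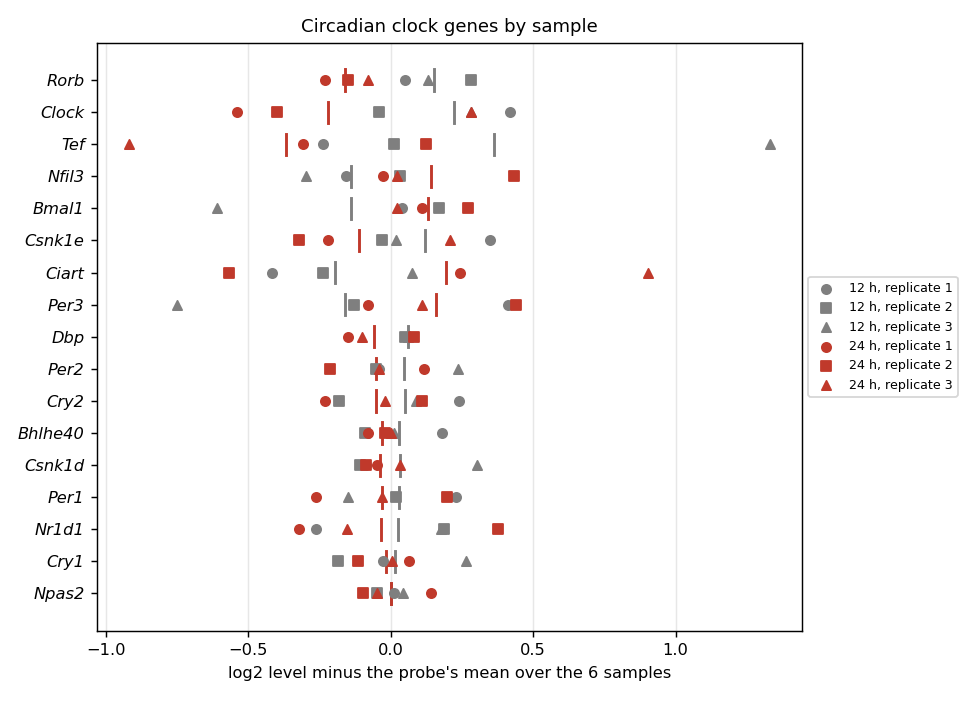
Levels of 17 of the 18 measured circadian clock genes in every sample, each as the log2 level minus the probe's own mean over the 6 samples, with 12 h in grey, 24 h in red, bars at the group means and symbols for the replicates. Groups overlapped for all drawn genes but Rorb, and 12 h replicate 3 (grey triangle) was the farthest of its group for Tef, Bmal1 and Per3.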

How the data were processed

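RNA from 6 samples was measured on 1-colour Agilent arrays. Per the file headers, the deposited files give an intensity for each spot (Agilent Feature Extraction, version 11.5.1.1) with background subtracted and no scaling between arrays; the headers name build rn4. The value table deposited by the authors holds a score per array, the standardised log of the same signal; its columns for 24 h replicates 1 and 3 match each other's scanner file (correlation 0.999996, against 0.991 with their own). Scanner files were used as labelled, which leaves the group comparison unaffected and the replicate numbers of these 2 samples unsure.

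Of 62976 spots per array, 4259 control spots and outlier flags were left out and spots of a probe averaged (30367 probes; 18758 matched 15715 RefSeq symbols by accession, 11609 stayed unnamed). The level is log2 intensity minus the array's 75th percentile. A probe was kept if all 3 arrays of either group had it well above background, 19889 in all, and a gene was reported by its brightest kept probe. The test was limma's, version 3.58.1 under R 4.3.3 with version 1.17.8 of data.table (lmFit and eBayes, two-sided, 4 residual and 3.84 prior degrees of freedom, Benjamini-Hochberg, threshold 0.05), tested on simulated data. The fold given for Ctxn3 sets the brighter group's mean against, per array, the dim probe's value or the lowest signal that passed the background criterion, whichever was higher. It carries no sampling error and is not a confidence limit. The number of arrays limits the precision.

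The groups and gene lists were chosen with earlier results of these data known. Named were the 10 higher and 10 lower genes with the smallest unadjusted p among genes without overlap, 5 and 5 likewise without 12 h replicate 3, the 3 members of smallest p in each list, all clock members, and Rrm1, Rrm2 and Rrm2b; values of a few of these are not reported here. No list was tested as a set. Exact permutation tests served single genes. Motifs were searched in RefSeq promoters (GRCr8).

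Whether replicate numbers pair samples was checked from deviations around the group means. As labelled, the correlations between 12 h and 24 h samples were -0.27, 0.26 and -0.16. With 24 h numbers 1 and 3 exchanged they were 0.41, 0.26 and 0.26. That pairing comes from these correlations and the deposited table, not from the labels, and the samples of each of its pairs share a slide. Alternatives covered scaling, background correction, filters, probes per gene, spots, samples in the fit, array weights, slide, pairing, the deposited scores and leaving out samples. Normexp was run on the median spot signal.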

Additional observations from a re-analysis of the deposited data

How the results depend on the processing

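No setting gave a feature past the adjusted threshold in the main comparison of 24 h with 12 h, in 22 alternatives, some of which left out samples or used slide 2 alone. With samples paired by replicate number (replicate block) the count was 0, and it was 0 with 24 h numbers 1 and 3 exchanged. The smallest adjusted p was 0.142 in the fit over the 12 treated samples, 0.349 with array weights and 0.384 in the fit over all 15 samples (limma). At an unadjusted p under 0.05 the total was 201, and it ran from 134 (normexp) to 776 (without 12 h replicate 3 and 24 h replicate 2, chosen after seeing the data). It was 441 with no filter on dim probes, 653 over 15 samples, 527 over 12, 713 with array weights, 290 with the replicate block and 645 with it exchanged. Leaving out each of the 6 samples gave 138 to 605. The share of these features that were higher at 24 h was 35.8%, and ran from 15.7% (without 24 h replicate 3) to 79.8% (without 12 h replicate 1). It was 59% with normexp.

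Without 12 h replicate 3 the count was 0 as well, except for 65 features with the exchanged replicate block. That fit had 1 residual degree of freedom and an estimated spread pooled fully across features, and its pairs are nested in slides. Unadjusted totals there were 235 and, with normexp, 85, with the replicate block 737, and with it exchanged 702.

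Of 632 recomputed differences of 28 named genes 619 kept their direction, but normexp made 19 of the 20 leading differences smaller by over 1.5 times. The count that kept direction was largely fixed in advance. Those 20 genes were chosen for groups without overlap, so leaving out samples cannot turn them, and several settings, such as the blocks, return the main estimate. Mcmdc2 was -0.02 with quantile normalization, -0.09 with normexp, -0.53 with array weights, -0.59 within slide 1, -0.66 without 12 h replicate 3 and 24 h replicate 2, and -0.6 to 0.38 leaving out 1 sample. Or4k48 and Mixl1 were -0.03 with normexp. Rrm2 was 0.06 with array weights, 0.12 within slide 1, 0.13 without both samples, and 0.03 without 24 h replicate 2, and ran from -0.29 to 0.03 leaving out 1 sample. Of 667 list medians 52 moved beyond the replicate spread. The causes were not tested. Low signal over background limits the dim genes named most.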

Other observations

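The deposited scores raise a question about the numbering of the 24 h replicates, which the correlations below cannot settle. Across the other 4 groups, the mean correlation of deviations from the group mean was 0.2 between the file labelled 24 h replicate 1 and samples numbered 3, and -0.08 with samples numbered 1. For the file labelled 24 h replicate 3 it was 0.21 with samples numbered 1 and -0.17 with samples numbered 3. For 24 h replicate 2 it was 0.15 with its own number. In the other 4 groups samples numbered 1 lay on slide 1 (untreated replicate 1 also had an array on slide 2) and those numbered 3 on slide 2. The file labelled 24 h replicate 1 lay on slide 2 and 24 h replicate 3 on slide 1. Shared slide and shared number therefore cannot be told apart in these correlations. The group means and the comparison of 24 h with 12 h do not use these numbers.

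Grin2d, an NMDA receptor subunit singled out after its values were seen, split the samples along the slides and not along the time of exposure. Its levels were 5.87 in 12 h replicate 1 and 6.03 in 24 h replicate 3, which share slide 1, and lay between 4.29 and 4.64 in the 4 samples on slide 2. With 24 h numbers 1 and 3 exchanged, the samples on slide 1 would also share a replicate number. Slide and replicate number cannot be told apart here, and the cause was not tested.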
